A study of Mus musculus with 6 samples.

Results

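Neurexins, neuroligins and leucine-rich repeat transmembrane (LRRTM) proteins are adhesion molecules that span the synaptic cleft. Of the 9 symbols that define the set here (Nrxn2, Nrxn3, Nlgn1, Nlgn2, Nlgn3, Lrrtm1, Lrrtm2, Lrrtm3 and Lrrtm4), 8 had a row of their own among the 35406 rows of the deposited table, and Nlgn3 appeared only in a row that names Med12 and Nlgn3 together. The set was chosen by gene symbol and does not hold every gene of these families. RNA came from the nucleus accumbens, a ventral striatal region innervated by midbrain dopamine neurons, of male C57BL/6 mice aged 11 weeks. One group had received repeated intraperitoneal cocaine at 20 mg/kg for 1 week and the other repeated saline, and the series title gives a withdrawal of 24 h. Tissue of 5 mice, from both hemispheres, was combined in a pool, there were 3 pools per group, and all mice of a cage had the same treatment. The table gave 1 value per gene and group in FPKM, the fragments of a gene relative to its transcript length and to all fragments mapped, and no value per pool, so the spread between pools could not be seen and the depth of the libraries is unknown.

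Neurexins sit on the presynaptic membrane and bind, across the cleft, the postsynaptic neuroligins and LRRTMs. Neurexin genes make long and short forms from separate start sites and are spliced into many isoforms. In rodents neuroligin 1 is known for excitatory and neuroligin 2 for inhibitory synapses, while neuroligin 3 is found at both, and LRRTMs are known as organisers of excitatory synapses. Most accumbens neurons are inhibitory medium spiny neurons that receive excitatory input from the cortex, hippocampus, thalamus and amygdala.

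After cocaine, Nrxn3, Nlgn1 and Nlgn2 fell and Lrrtm1 rose, whereas Nrxn2, Lrrtm2, Lrrtm3 and Lrrtm4 did not pass the test of the authors' deposited table. A gene was called where the authors' adjusted p-value (q) was under 0.05. Of the 8 genes 4 were called, 3 lower and 1 higher, and all 8 passed a filter of at least 1 FPKM on average. Among the 14193 genes that passed it, 14.6% were called, 7.18% lower and 7.46% higher. At a q under 0.01, which 9.26% of all genes passed, Nrxn3, Nlgn1 and Lrrtm1 were still called. Among genes alone in their locus, of which 12.9% were called, Nlgn2 was the single gene of the set. The called differences were small: none of the 4 reached 1.5-fold, a size that 4.5% of all genes tested reached together with a call. The median log2 ratio of cocaine over saline over the 8 genes was 0.02, beside 0.04 over all genes tested, with 4 of the 8 ratios above 0 and 4 below. Each error printed with a log2 ratio is the standard error implied by the authors' test statistic, and it need not hold the spread between pools.

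The stretches before the start sites of the 4 called genes are shown because 3 of them fell and 1 rose. They were taken from RefSeq on GRCm38.p6, a later build than the one used for the table, as the 250 bases before an annotated start. Windows were taken for 6 genes of the set, with 10 start sites among them. None was taken for Nrxn2, Nlgn3 or Lrrtm2, so the count of 6 is not the number of genes with an entry. For a gene with several starts the one with most CpG dinucleotides is printed. CpG dinucleotides are in capitals.
Nrxn3 (chr12:89812233-89812482, plus strand): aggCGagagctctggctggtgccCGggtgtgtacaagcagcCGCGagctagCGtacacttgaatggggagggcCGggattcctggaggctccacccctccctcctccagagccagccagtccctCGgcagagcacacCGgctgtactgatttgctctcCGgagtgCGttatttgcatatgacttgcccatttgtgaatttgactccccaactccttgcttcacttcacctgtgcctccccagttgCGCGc
Nlgn1 (chr3:26331910-26332159, minus strand): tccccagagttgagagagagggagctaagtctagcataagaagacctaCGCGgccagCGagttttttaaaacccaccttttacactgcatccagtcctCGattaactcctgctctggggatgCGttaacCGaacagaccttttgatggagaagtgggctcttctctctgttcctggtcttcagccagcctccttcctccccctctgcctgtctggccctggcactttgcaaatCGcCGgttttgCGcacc
Nlgn2 (chr11:69837785-69838034, minus strand): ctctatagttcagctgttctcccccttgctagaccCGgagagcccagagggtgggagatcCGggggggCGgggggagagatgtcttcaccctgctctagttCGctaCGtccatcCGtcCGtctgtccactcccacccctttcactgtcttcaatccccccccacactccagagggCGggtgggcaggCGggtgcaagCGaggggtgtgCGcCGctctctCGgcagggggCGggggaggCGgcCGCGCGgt
Lrrtm1 (chr6:77242227-77242476, plus strand): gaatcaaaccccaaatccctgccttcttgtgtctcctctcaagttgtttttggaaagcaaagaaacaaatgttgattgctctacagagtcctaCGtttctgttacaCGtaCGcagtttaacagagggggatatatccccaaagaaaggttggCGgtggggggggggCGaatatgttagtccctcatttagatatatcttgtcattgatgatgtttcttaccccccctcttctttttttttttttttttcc
These windows held 12 (Nrxn3), 9 (Nlgn1), 18 (Nlgn2) and 5 (Lrrtm1) CpG dinucleotides, beside a median of 6 over the 32851 RefSeq windows of the same length. That median is over windows not chosen for CpG, whereas the printed Nrxn3 and Nlgn1 windows were. The windows of these genes that are not printed held 2 and 5 (Nrxn3) and 5 (Nlgn1). The start site of the printed Nrxn3 window belongs to short transcripts: the GENCODE vM21 transcripts that begin within 100 bases of it had at most 7 exons, against 21 in the Nrxn3 transcript with most exons. At the printed Nlgn1 start 1 transcript began, with 3 exons against 8 in the Nlgn1 transcript with most exons. No GENCODE transcript began within 100 bases of the printed Lrrtm1 start, and at that of Nlgn2 1 began, with 8 exons, the most of any Nlgn2 transcript. The windows were searched on both strands for TGACG, the core of sites of the activity-regulated factor CREB, for TGANTCA, the AP-1 site of Fos and Jun proteins, and for GCGNGGGCG, a site of Egr proteins. None of these letters occurred in the 4 printed windows. They occur in 17.8% (TGACG), 6.75% (TGANTCA) and 4.7% (GCGNGGGCG) of all RefSeq windows. Another Nrxn3 start site had 1 TGANTCA match. The table gives 1 value per gene and group, which cannot be assigned to a start site. Its Nlgn1 row spans 701.9 kb, against 906.2 kb for the gene in GENCODE vM21, so the printed Nlgn1 start may lie outside what was measured.

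In saline, Nrxn2 was the most abundant gene of the set at 205.2 FPKM, and Nrxn3 followed with 90.4 FPKM. Nlgn2, which anchors the inhibitory postsynapse, stood at 82.0 FPKM and Lrrtm3 at 68.1 FPKM. Nlgn1 with 24.3, Lrrtm1 with 20.8, Lrrtm4 with 12.7 and Lrrtm2 with 6.34 FPKM were lower. All of these are the group values of the authors' deposited table, and the set ran from percentile 36.8 to percentile 97.7 of the mean FPKM of all genes tested. Within the neuroligins, Nlgn2 was at 3.37 times the saline level of Nlgn1. Within the LRRTMs, Lrrtm3 supplied 63.1% of the summed saline FPKM and was at 10.7 times the level of Lrrtm2.

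In cocaine the order changed in the middle of the set. Nrxn2 stayed first at 214.4 FPKM, and Lrrtm3 (72.0 FPKM), Nlgn2 (71.5 FPKM) and Nrxn3 (71.3 FPKM) came next at nearly equal levels. Lrrtm1 at 27.2 FPKM stood above Nlgn1 at 18.4 FPKM, the reverse of the saline group. Lrrtm4 (14.5 FPKM) and Lrrtm2 (6.28 FPKM) were again the lowest. Whether neighbours in either order differ beyond the spread between pools could not be examined, since the authors' deposited table holds no such spread.

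**Figure D1:**
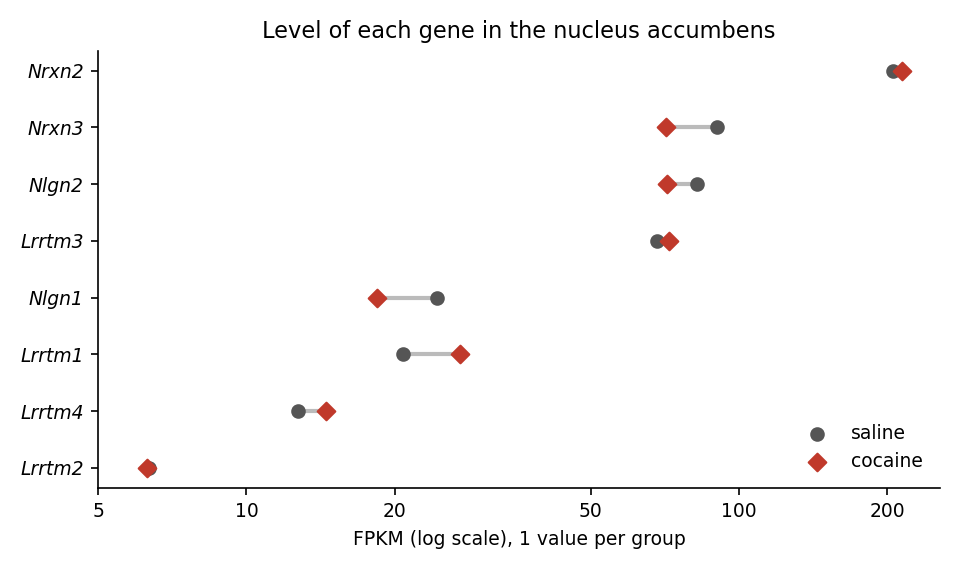
Level of the 8 genes in FPKM on a log axis, with a grey circle for the saline and a red diamond for the cocaine group value, and no replicate values. Nrxn3 goes from 90.4 to 71.3 FPKM, Lrrtm1 goes from 20.8 to 27.2 FPKM and crosses Nlgn1, and the points of Lrrtm2 lie on each other.

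Nrxn3 fell to 0.79 of its saline level, 90.4 FPKM in saline against 71.3 FPKM in cocaine. The authors' deposited table puts its log2 ratio at -0.34 ± 0.06 (implied standard error) with q = 4.33e-08, the smallest q of the set. The row covers chromosome 12, 89961320 to 91573375, in the mouse build that the submitters' notes call mm9 and NCBIM37, and 2 gene models listed at 0 in both groups share this locus. Nrxn2, its paralogue, had 205.2 FPKM in saline and 214.4 FPKM in cocaine. Its log2 ratio was 0.06 ± 0.68, with q = 1.09 by the authors' deposited table. That error was large for so abundant a gene: the 686 genes within 2-fold of its mean FPKM had a median implied error of 0.09, and 99.7% of them had a smaller one than Nrxn2. The 95% interval of the Nrxn2 ratio ran from 0.42 to 2.62 times the saline level and covers the ratio of Nrxn3. The difference between the paralogues was 0.41 ± 0.68 on the log2 scale, with the errors combined as if independent, so a different response of Nrxn2 and Nrxn3 was not shown. The Nrxn2 row (chromosome 19, 6418731 to 6544899) shares its locus with 4 others, of which the highest, Gm14964, had 1.36 FPKM in saline.

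Both neuroligin genes with a row of their own fell. Nlgn1 had 24.3 FPKM in saline and 18.4 FPKM in cocaine, and the authors' deposited table gives a log2 ratio of -0.40 ± 0.11 and q = 0.0049. This was the lowest ratio of the set and lay at percentile 8.35 of all genes tested. The Nlgn1 row covers chromosome 3, 25330733 to 26032656, and shares it with a 5S ribosomal RNA model under 1 FPKM. Nlgn2 had 82.0 FPKM in saline and 71.5 FPKM in cocaine, and the authors' deposited table gives a log2 ratio of -0.20 ± 0.07 and q = 0.0437, close to the threshold. Its locus (chromosome 11, 69636624 to 69651286) holds no other row. The ratios of the pair differed by 0.20 ± 0.13 on the log2 scale (95% interval -0.06 to 0.46), which does not separate them. Together the FPKM of the pair was 106.4 in saline and 89.9 in cocaine, 0.85 of the saline sum.

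Nlgn3 could not be measured apart from Med12, which encodes a subunit of the Mediator complex of transcription. Their joint row (chromosome X, 98469369 to 98521302) held 58.9 FPKM in saline and 49.1 FPKM in cocaine. It fell with a log2 ratio of -0.26 ± 0.06 and q = 0.000134 by the authors' deposited table. GENCODE vM21 annotates the pair as separate genes on the same strand, and how much of the fall belongs to either gene cannot be told apart. With that row counted as Nlgn3, 5 of 9 genes were called, 4 of them lower.

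Lrrtm1 was the single gene of the set called higher. It had 20.8 FPKM in saline and 27.2 FPKM in cocaine, 1.31 times the saline level. The authors' deposited table gives it a log2 ratio of 0.39 ± 0.10 and q = 0.0016, a ratio at percentile 87.2 of all genes tested. Lrrtm4, which binds heparan sulphate proteoglycans, had 12.7 and 14.5 FPKM, and a log2 ratio of 0.19 ± 0.11 with q = 0.339 by the authors' deposited table. Lrrtm3, which like Lrrtm4 can bind heparan sulphate, had 68.1 and 72.0 FPKM and a log2 ratio of 0.08 ± 0.10. The neurexin ligand Lrrtm2 had 6.34 and 6.28 FPKM and a log2 ratio of -0.01 ± 0.14. The 95% intervals of these 3 ratios run from 0.98 to 1.32 (Lrrtm4), 0.93 to 1.21 (Lrrtm3) and 0.81 to 1.21 (Lrrtm2) times the saline level. The ratio of Lrrtm1 exceeded that of Lrrtm2 by 0.40 ± 0.18 (95% interval 0.06 to 0.74) and that of Lrrtm3 by 0.30 ± 0.14 (0.03 to 0.58) on the log2 scale, with the errors combined as if independent. It exceeded that of Lrrtm4 by 0.20 ± 0.15 (-0.09 to 0.49), which does not separate the 2. These intervals were not adjusted for the 8 pairs compared within families.

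**Figure D2:**
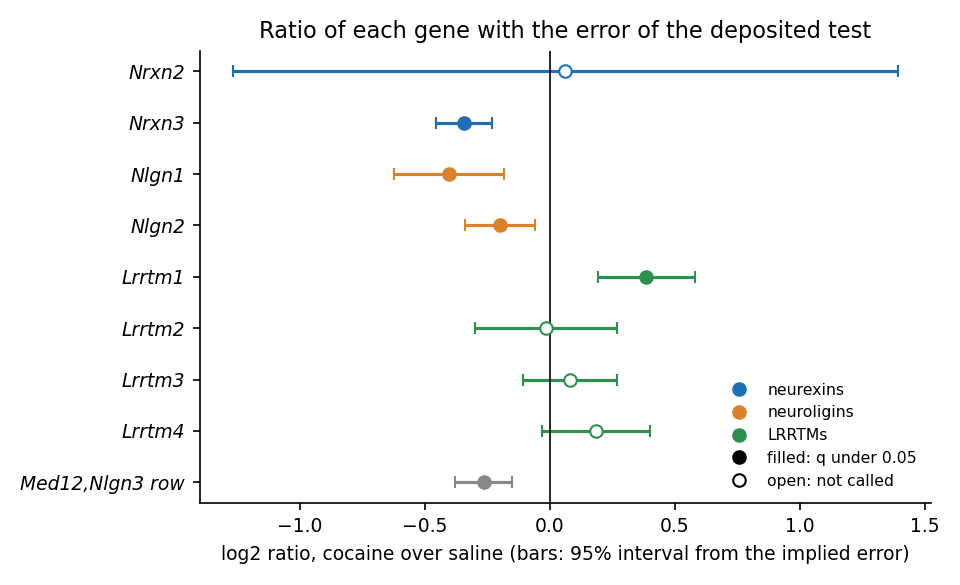
Log2 ratio of cocaine over saline for the 8 genes and for the joint row of Med12 and Nlgn3, with bars for the 95% interval from the implied error. Filled points have q under 0.05. Nrxn3, Nlgn1, Nlgn2 and the joint row lie below 0 and Lrrtm1 above it, and the bar of Nrxn2 is the widest.

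Lrrtm1, Lrrtm2 and Lrrtm3 lie inside alpha-catenin genes, which encode linkers between cadherins and actin, and share the printed locus with them. In GENCODE vM21, Lrrtm1 lies within Ctnna2, Lrrtm2 within Ctnna1 and Lrrtm3 within Ctnna3, each on the strand opposite to its host. None of the 9 annotated exons of Lrrtm1 and none of the 9 of Lrrtm3 overlapped an exon of the host, whereas 2 of the 4 exons of Lrrtm2 did. Whether reads were counted by strand is not stated in the material used here, so reads of Lrrtm2 and Ctnna1 cannot be told apart there. Ctnna2, in the locus of Lrrtm1 (chromosome 6, 76831631 to 77929693), had 34.0 and 30.0 FPKM. Its log2 ratio was -0.18 ± 0.08 with q = 0.119 by the authors' deposited table, opposite in sign to that of Lrrtm1. Ctnna1, in the locus of Lrrtm2 (chromosome 18, 35278542 to 35414427), had 15.2 and 16.6 FPKM with q = 0.64 by the authors' deposited table. Ctnna3, in the locus of Lrrtm3 (chromosome 10, 62892846 to 64466415), was far below it with 1.01 and 0.66 FPKM. Lrrtm4 (chromosome 6, 79876408 to 80760137) shared its locus with Gm4409, a model under 1 FPKM that fell, and with another listed at 0.

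The genes that fell have long transcripts, and long transcripts were lower after cocaine across the whole table. All genes tested were ordered by their longest GENCODE vM21 transcript and divided into 10 length groups of equal size, with a length found for 96.3% of them. Nrxn2, Nrxn3 and Nlgn1, with longest transcripts of 6667, 7922 and 11807 nt, were in the longest of these. Its 1367 genes had a median log2 ratio of -0.19, and 29.8% of them were called lower against 3.58% called higher. Nlgn2 (5568 nt) and Lrrtm2 (5673 nt) were in length group 9, where the median was -0.06 and 13.6% were called lower. Lrrtm1, with 2958 nt, was in length group 5, where the median was 0.07 and 8.85% were called higher. Lrrtm3 was in length group 7 (median 0.02) and Lrrtm4 in length group 8 (median -0.03). The ratio of each of the 4 LRRTM genes and of Nrxn2 was above the median of its group by transcript length. Those of Nrxn3, Nlgn1 and Nlgn2 were below it. For Nrxn2, Lrrtm2 and Lrrtm3 the gap to that median was smaller than the implied error of the ratio (0.68, 0.14 and 0.10). By length of the gene on the genome, the longest group (130.3 kb and more) had a median log2 ratio of -0.14 and held Nrxn3, Nlgn1, Lrrtm3 and Lrrtm4. Nlgn2, which also fell, spans 14.7 kb and was in length group 5 by this measure, where the median was 0.04 and 5.05% were called lower. Lrrtm2, with a span of 6.02 kb, was in length group 3 by this measure. The median there was 0.07, above the Lrrtm2 ratio of -0.01. The part of transcript length in the falls of Nrxn3, Nlgn1 and Nlgn2 was not tested.

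**Figure D3:**
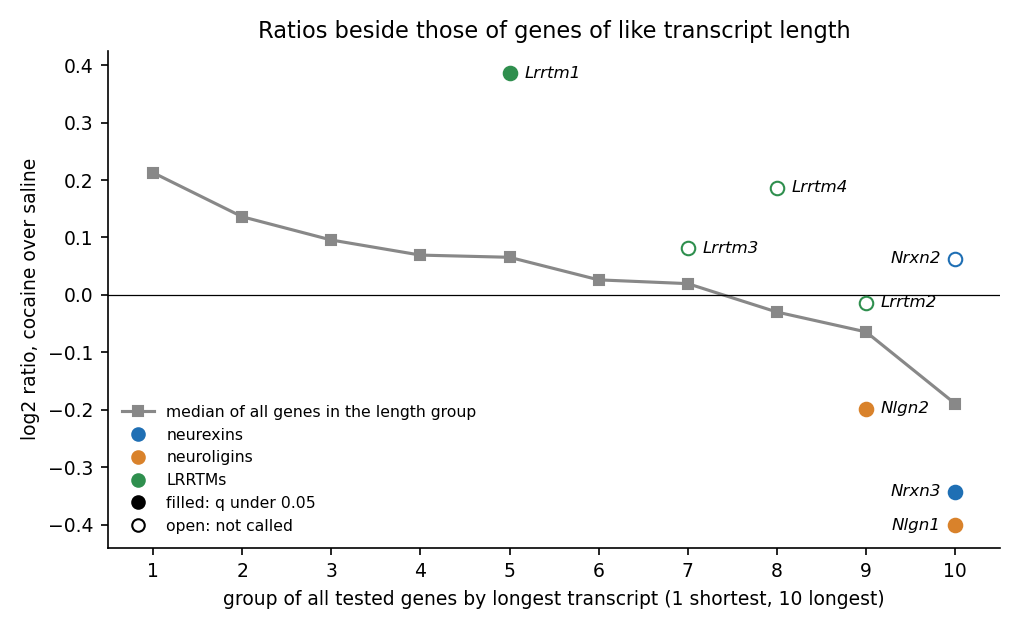
Log2 ratio of cocaine over saline against the group of all genes tested by longest annotated transcript, from 1 (shortest) to 10 (longest), with grey squares for the median of each group and coloured points for the 8 genes (filled where q is under 0.05). The medians run from 0.21 in the shortest to -0.19 in the longest group, with Nrxn3 and Nlgn1 below and Nrxn2 above the longest group's median.

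Other genes of the same synaptic machinery were counted in 9 lists, beside the 14.6% of all genes tested that were called. That share varied with length: in the group of longest transcripts 33.4% were called, 29.8% lower and 3.58% higher. The lists were not matched to genes of like length, and the part of length in their counts was not tested. Of 17 postsynaptic scaffold genes, whose products hold neuroligins, LRRTMs and receptors in place, 9 fell and 0 rose, with a list median log2 ratio of -0.19. Dlgap2 fell, with 27.1 FPKM in saline and 16.7 FPKM in cocaine (log2 ratio -0.70 ± 0.07 by the authors' deposited table). Shank1 fell likewise, with 55.9 and 38.0 FPKM (-0.56 ± 0.09). The membrane-associated guanylate kinase gene Dlg2 (-0.50 ± 0.07) and Dlgap1 (-0.48 ± 0.07) had the next lowest called ratios. Dlgap3, with 120.1 and 105.5 FPKM, was not called.

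Of 23 other synaptic adhesion genes 12 fell and 1 rose, with a list median of -0.30. The teneurin gene Odz2, whose product binds latrophilins across the synapse, had 26.8 FPKM in saline and 13.6 FPKM in cocaine, and a log2 ratio of -0.98 ± 0.16 by the authors' deposited table. The teneurin genes Odz4 (-0.62 ± 0.09) and Odz3 (-0.48 ± 0.09) fell too. Igsf9b, which encodes an adhesion protein of inhibitory synapses, fell with 6.15 and 3.19 FPKM (-0.94 ± 0.13). The receptor phosphatase gene Ptprs had 133.9 and 122.8 FPKM, the ephrin gene Efnb3 had 50.8 and 52.8 FPKM, and neither was called. Of the 20 other leucine-rich repeat adhesion genes 2 were called, Elfn2 (log2 ratio -0.45 ± 0.11) and Lrrc4 (-0.42 ± 0.09), both lower by the authors' deposited table. Lrrc4b (106.0 and 115.5 FPKM) and Lingo1 (54.3 and 51.9 FPKM) were the most abundant of those not called. The difference between these lists was not tested.

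Of 7 other extracellular neurexin partners 2 fell. The dystroglycan gene Dag1 had 25.4 and 19.3 FPKM (log2 ratio -0.39 ± 0.09) and the latrophilin gene Lphn1 304.6 and 255.5 FPKM (-0.25 ± 0.07), by the authors' deposited table. The calsyntenin gene Clstn3, with a log2 ratio of 0.0031 ± 0.08, and Lphn2, with 26.8 and 24.0 FPKM, were not called. C1ql3, which encodes a secreted C1q-like protein, averaged under 1 FPKM and is outside that count. It rose, with 0.60 FPKM in saline and 1.28 FPKM in cocaine and q = 0.0038 by the authors' deposited table.

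Of 8 heparan sulphate proteoglycan genes of the cell surface 1 was called, the syndecan gene Sdc3, with 131.0 FPKM in saline and 88.8 FPKM in cocaine (log2 ratio -0.56 ± 0.08 by the authors' deposited table). The glypican gene Gpc1 (26.5 and 23.8 FPKM) and the syndecan gene Sdc2 (24.9 and 21.3 FPKM) were not called. Of 10 genes for cytoplasmic partners of neurexins, Apba2 fell (-0.26 ± 0.08, q = 0.0115) and Lin7b rose (0.27 ± 0.10, q = 0.0476), by the authors' deposited table. Ppfia3 and Lin7c were the most abundant of the rest.

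Of 9 genes for RNA-binding proteins linked to neurexin and neuroligin splicing 1 was called, Ptbp2, which rose with 13.5 FPKM in saline and 18.6 FPKM in cocaine (0.46 ± 0.14 by the authors' deposited table). Rbfox3 (131.9 and 120.0 FPKM) and Rbfox1 (111.2 and 103.6 FPKM) were not called. By the authors' test, named as Cuffdiff in the submitters' processing notes, 0 of the 2 MDGA genes, whose products block neuroligins, were called. Of the 6 genes for shedding proteases 0 were called. By the same test 0 of the MDGA genes and 2 of the protease genes had an unadjusted p under 0.05. The share of all genes tested with such a p was not counted, so these 2 counts have no background beside them. The most abundant protease genes were Bace1 (59.6 and 51.7 FPKM) and Ncstn (35.2 and 33.9 FPKM).

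**Figure D4:**
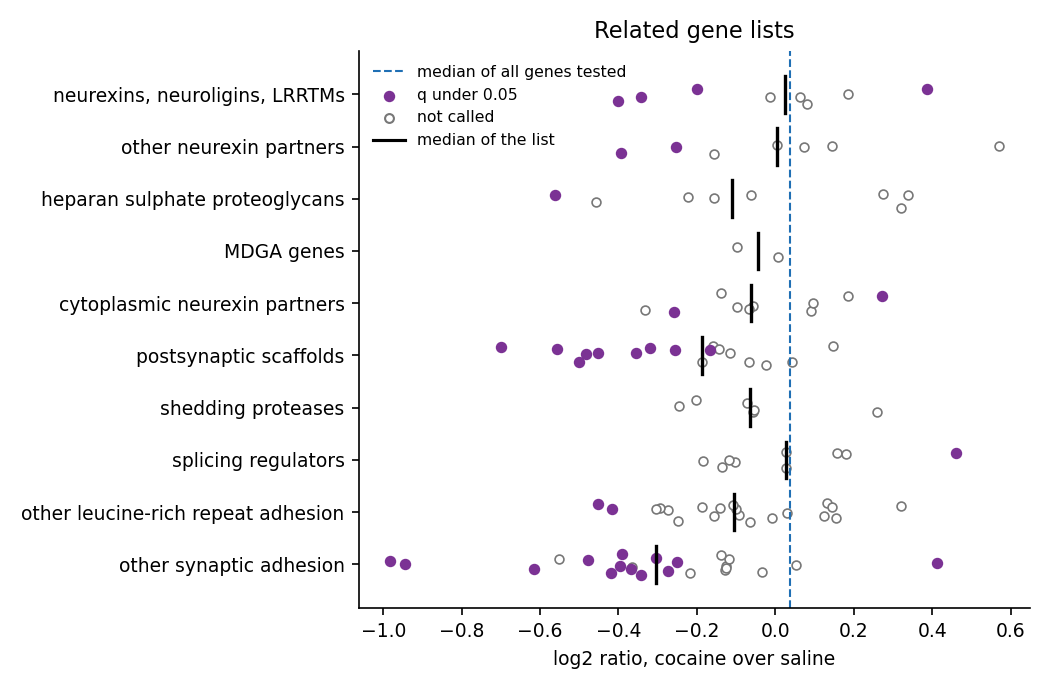
Log2 ratio of cocaine over saline for the genes of the set and of 9 related lists with a mean of at least 1 FPKM, 1 point per gene, purple where q is under 0.05, with a black bar at each list's median and a dashed line at the median of all genes tested (0.04). The medians of the postsynaptic scaffolds (-0.19) and of the other synaptic adhesion genes (-0.30) are the lowest shown.

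Markers of the tissue were high, with a summed level of 8 medium spiny neuron genes of 3297 FPKM in saline and 3726 FPKM in cocaine, 2 of them called higher. The most abundant of the 8 was not called, and the other 7 summed to 1560 and 1783 FPKM. Of the 8 ratios 6 were above 0 and 2 below. The 4 markers of cortical excitatory neurons summed to 15.9 and 25.0 FPKM. Among them Slc17a7, the vesicular glutamate transporter gene of those neurons, rose with 13.0 and 21.4 FPKM (log2 ratio 0.72 ± 0.13 by the authors' deposited table). The 5 choroid plexus markers summed to 100.6 and 16.7 FPKM. Most of this was Ttr, the transthyretin gene, which had 93.4 and 9.46 FPKM and was called lower in the authors' deposited table. The other 4 summed to 7.20 FPKM in saline and 7.20 FPKM in cocaine, but they did not move alike. Clic6 was higher after cocaine, with 4.22 and 5.49 FPKM. Kl (1.56 and 1.12 FPKM), Folr1 (0.73 and 0.07 FPKM) and Otx2 (0.69 and 0.52 FPKM) were lower. None of these 4 was called, and Folr1 and Otx2 were under 1 FPKM. The sums were 748.0 and 765.5 FPKM for 4 interneuron markers, 96.0 and 86.0 for 4 astrocyte markers, and 57.9 and 54.7 for 4 microglial markers, with 0 called. They were 1754 and 1699 FPKM for 4 oligodendrocyte markers (Mbp called lower), 11.2 and 9.96 for 2 oligodendrocyte precursor markers (Cspg4 called lower) and 27.1 and 28.2 for 3 endothelial markers (Pecam1 called lower). No marker was at 0 in either group. The part of these shifts in the results for the adhesion genes was not tested, and in pooled tissue fewer cells of a type and less RNA per cell cannot be told apart.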

How the data were processed

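Per the submitters' processing notes, the tools were CASAVA, TopHat and Cuffdiff and the builds mm9 and NCBIM37; no version or annotation is stated in the material used here. The authors deposited 1 table, which holds an FPKM for each group; the unit is taken from its Cuffdiff layout. The authors' deposited p-value, q and test statistic (both treated as a score, since q exceeds 1 in places) were used as they stand. The statistic had the sign opposite to the log2 ratio in 100% of 20054 rows, so only its size was used: the implied error is the absolute log2 ratio over it. Depth is unknown, and whether the authors' test took in the spread between the 3 pools per group is not stated.

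Log2 ratios were computed without a pseudocount in Python 3.11.15 with pandas 2.3.3. Calls are q under 0.05 with status OK. Genes tested have 1 symbol, status OK, values above 0 in both groups and a mean of at least 1 FPKM, with 1 row per symbol. A table start was raised by 1, which matched 21 of 21 mitochondrial genes to the reference. Lists are described by counts and medians, with no set test. Named genes are the set, its locus partners and the called markers. Per related list they are up to 4 called genes by size and the 2 most abundant uncalled genes. Other markers are given as sums, and those of the choroid plexus also singly. A few genes chosen this way are not reported here. The set, lists and tests were chosen with earlier results of these data known. The steps were run on simulated data with noise drawn from the implied errors. That run checks the computation only, and cannot show whether those errors hold the spread between pools. Alternatives were other q thresholds, recomputed adjustment, a 1.5-fold minimum, rows alone in their locus, another FPKM minimum, a pseudocount and centring.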

Additional observations from a re-analysis of the deposited data

How the results depend on the processing

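The log2 ratios of the 8 genes kept their sign in 16 of 16 values with a pseudocount of 1 or after subtracting the median of all genes tested, and moved by at most 0.04. The count of 4 called genes of the 8 was 3 at a q under 0.01 (Nlgn2 was lost) and 4 with recomputed Benjamini-Hochberg adjustment. At a q under 0.1, which 18.5% of all genes tested passed, the count was 4. It was 0 with a minimum of 1.5-fold, and 1 (Nlgn2) with rows alone in their locus, since the other genes share theirs. Counting the joint row as Nlgn3, an alternative chosen after seeing the data, gave 5. The median over the set became -0.012 after centring and did not otherwise change sign. With rows alone in their locus the called genes numbered 3 of the postsynaptic scaffolds, 6 of the other adhesion genes, 1 each of the leucine-rich repeat genes, the extracellular and the cytoplasmic neurexin partners, and 0 of the proteoglycans; fewer genes enter those counts. At a q under 0.1, beside 18.5% of all genes tested, 3 of the 8 proteoglycan genes were called. At a q under 0.01, beside 9.26% of all genes tested, 0 of the 10 cytoplasmic partners and 0 of the 9 splicing genes were called. No paired analysis was possible because the table holds 1 value per group, and for the same reason leaving out single pools was not run. No symbol of the set recurred, so summing rows gave no other value.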
